A study of Mus musculus with 4 samples.

Results

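The genes described here are 10 that build, coat or empty the lipid droplet: the coat protein genes Plin2, Plin3, Plin4 and Plin5, the droplet fusion genes Cidea and Cidec, the lipase genes Pnpla2 and Lipe, the lipase inhibitor gene G0s2 and the triglyceride synthesis gene Dgat2. They were taken by name, through the RefSeq accession of each probe, from 20886 genes named on the array, and all 10 were found, on 11 probes. Of the 10, 9 were among the 12542 genes bright enough to test. The samples were heart muscle cells isolated from adult male mice, 10 weeks old, that carried a Cre transgene under the αMHC promoter, which is active in heart muscle cells, together with tetO-driven Yamanaka OSKM factors (Pou5f1, Sox2, Klf4 and Myc). The doxycycline group (2 arrays) came from mice given doxycycline by intraperitoneal injection for 2 days, and the control group (2 arrays) from mice given PBS over the same 2 days. Both groups carried the transgenes, and no array came from mice given doxycycline without the factors, so drug and factors cannot be told apart. The labels do not say whether the 2 arrays of a group came from separate animals, so the p-values speak only for the scatter among these 4 arrays, part or all of which may be technical.

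A lipid droplet is a store of triglyceride inside the cell, wrapped in a single layer of phospholipid and in proteins of the perilipin family. The perilipins decide how readily lipases reach the stored fat. Adipose triglyceride lipase, the product of Pnpla2, takes the first fatty acid off a triglyceride, and hormone-sensitive lipase, the product of Lipe, acts mainly on the diglyceride that is left. In heart muscle the droplets are small, lie close to mitochondria and buffer the supply of fatty acid, which is both the main fuel and, through PPAR receptors, a signal that turns on genes of fat use.

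A level is the log2 of a probe's processed signal less the 75th percentile of its array, and a difference is doxycycline minus control on that log2 scale with its standard error (SE, n = 2 arrays per group). A level holds for 1 probe, so levels of different genes are not comparable. Over the 4 arrays that percentile lay at signals of 112 to 248, and the share of spots well above background was 50.6% to 51.8%. Control array 1 stood apart from the other 3. Compared with control array 2, it read lower on 12 of 14 heart muscle markers (median gap -1.17) and higher on 10 of 10 fibroblast markers (1.67), 10 of 10 endothelial markers (1.68) and all 4 red cell markers tested (2.30). Over all genes tested, control array 1 read lower than control array 2 for 6695 of 12542 (median gap -0.08). The differences of the lipid droplet genes and the list medians are therefore also given without that array. Of the introduced factors, Myc read 1.77 and -0.49 on doxycycline arrays 1 and 2 and -2.34 and -3.21 on control arrays 1 and 2, while Klf4 differed by -0.28 ± 0.48 (SE), Pou5f1 was well above background on 1 doxycycline array and Sox2 on none. Whether these probes read the transgenes was not tested.

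Lipid droplet genes were mostly higher after doxycycline. Of the 9 tested, 8 had a higher mean in the doxycycline arrays, as did 45.2% of all genes, and 1, G0s2, had a lower one, as did 54.8%. The median difference over the 9 was 1.56, against -0.06 over all genes tested. Both doxycycline arrays lay above both control arrays for 6 of the 9 (Plin2, Plin4, Plin5, Cidea, Pnpla2 and Lipe), which was so for 14.5% of all genes, and below both for G0s2, which was so for 20.8% of all genes. The same 6 had a limma unadjusted p under 0.05 in the higher direction, as did 3.17% of all genes, and G0s2 had one in the lower direction, as did 3.89%. These 7 genes also differed by at least 1 on the log2 scale, and with that added the shares of all genes were 3.14% higher and 3.82% lower. None of the 9 passed at a limma adjusted p under 0.05, and nor did any other gene (0.00% called), the adjusted p of the 9 ranging from 0.350 to 0.976. All 9 were well above background on all 4 arrays, and the scanner software's error of a single spot was 10.0% to 11.98% of its signal for these genes.

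**Figure D1:**
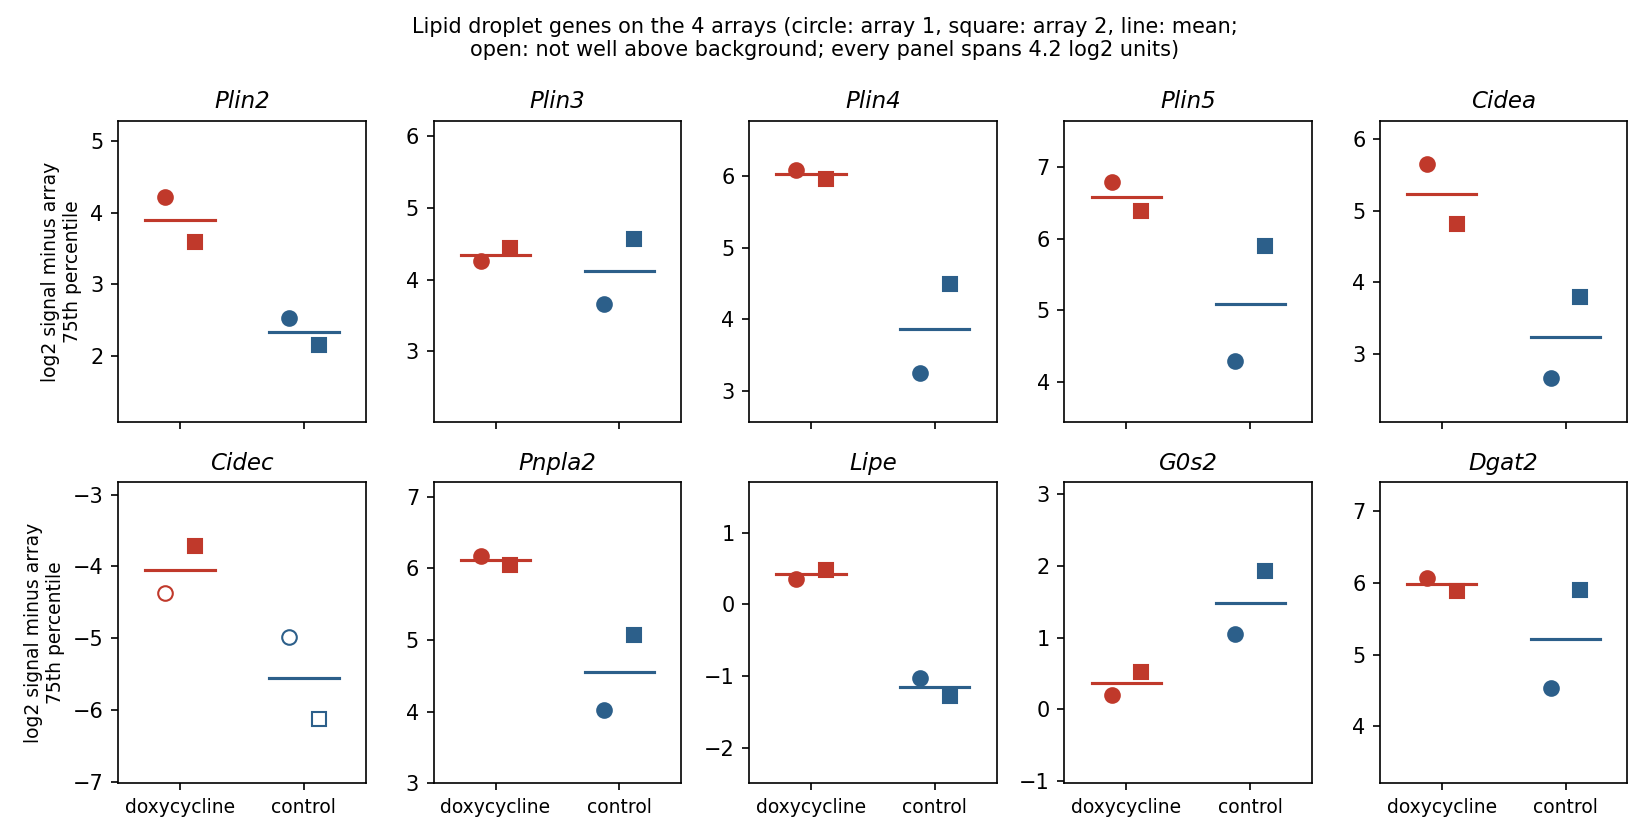
Level of each lipid droplet gene (log2 signal less the array's 75th percentile) on doxycycline arrays, left, and control arrays, right. Circles are array 1 of a group, squares array 2 and lines the mean, open symbols are not well above background, and the brighter probe is drawn for Cidec. Lipe has close pairs in both groups, while for Plin4, Plin5, Pnpla2 and Dgat2 the doxycycline arrays lie at most 0.41 apart and the control arrays lie 1.24, 1.60, 1.05 and 1.37 apart.

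**Figure D2:**
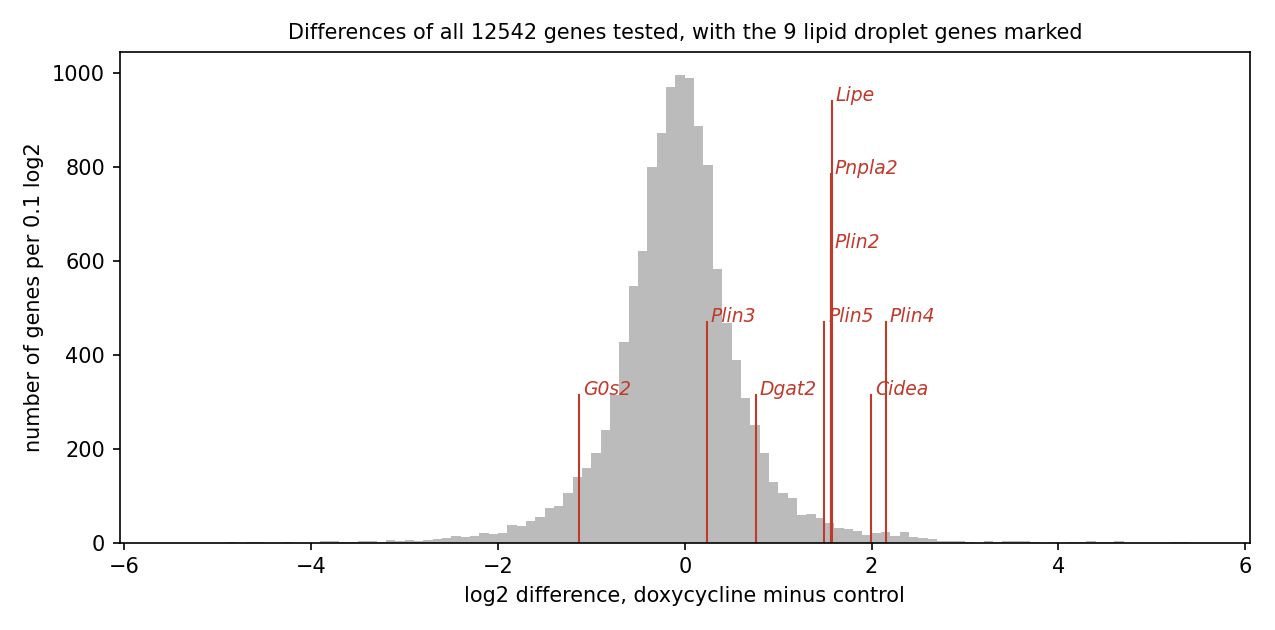
Histogram of the log2 difference, doxycycline minus control, of all 12542 genes tested, in bins of 0.1, with a red line at each of the 9 lipid droplet genes. Plin4 at 2.15 and Cidea at 1.99 lie furthest right, 4 genes lie between 1.49 and 1.57, and G0s2 lies left of the centre at -1.13.

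The perilipins divided into 3 with large differences and 1 without. Plin4, whose product coats newly formed droplets in fat and muscle cells, read 6.09 and 5.96 on doxycycline arrays 1 and 2, against 3.25 and 4.49 on control arrays 1 and 2. The doxycycline arrays were close together and the control arrays were not, yet the groups were separated by 1.47 at their nearest. The difference was 2.15 ± 0.52 (SE, 4.45-fold, limma adjusted p = 0.350), higher than that of 99.1% of all genes and the largest of the 9. Plin5, the perilipin of oxidative tissues, which ties droplets to mitochondria and controls the access of the lipase encoded by Pnpla2, read 6.79 and 6.38 after doxycycline and 4.29 and 5.89 in control. Its control arrays were 1.60 apart, the widest gap of any of the 9 genes, and the nearest arrays of the 2 groups were 0.49 apart. The Plin5 difference was 1.49 ± 0.60 (SE, 2.82-fold, limma adjusted p = 0.684).

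Plin2, the general coat protein of droplets outside fat tissue, whose level tends to follow the amount of stored lipid, gave 4.21 and 3.59 on the doxycycline arrays and 2.53 and 2.15 on the control arrays. Here control array 1 was the higher of the control pair, unlike for Plin4 and Plin5. The difference was 1.56 ± 0.44 (SE, 2.95-fold, limma adjusted p = 0.439). Plin3, a coat protein that moves between the cytosol and droplets, read 4.26 and 4.44 after doxycycline and 3.66 and 4.57 in control, so that both doxycycline arrays lay between the control arrays. Its difference was 0.24 ± 0.46 (SE), with a 95% interval of -0.87 to 1.34, which leaves room for a difference of either sign.

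In the RefSeq table of mouse assembly GRCm38.p6, Plin4 and Plin5 are next to each other on chromosome 17, with 0 listed genes between them, and Plin3 follows after 9 more. A promoter window was matched for 8 of the 10 genes, as 11 windows. The 250 bases upstream of the start were searched on both strands for a PPAR and RXR half-site repeat (AGGNCA, any 1 base, AGGNCA), an E-box (CACGTG, a sequence that MYC with MAX binds), a glucocorticoid receptor repeat (GNACA, any 3 bases, TGTNC) and a cyclic AMP response element (TGACGTCA). The E-box was found in 1 of the 11 windows, at Lipe, against 6.02% of 32851 windows of all genes. None of the other 3 was found in the 11, and they stood in 0.338%, 0.387% and 1.55% of all windows. The core TATA box (TATAA, read on the gene's strand in the last 40 bases before the start) stood in 2 of the 11, those of the neighbours Plin4 and Plin5, against 4.23% of all windows. A match is a run of letters, not a shown binding site. The sequences below are from RefSeq, GRCm38.p6, 5′ to 3′ on the gene's strand, and capitals mark TATAA in Plin4 and Plin5 and the E-box in Lipe. Plin4 and Plin5 are shown because they are neighbours with that shared element, Lipe because of its E-box, and G0s2, where nothing was marked, because it was the 1 member that was lower.
Plin4, chr17:56109783-56110032, minus strand: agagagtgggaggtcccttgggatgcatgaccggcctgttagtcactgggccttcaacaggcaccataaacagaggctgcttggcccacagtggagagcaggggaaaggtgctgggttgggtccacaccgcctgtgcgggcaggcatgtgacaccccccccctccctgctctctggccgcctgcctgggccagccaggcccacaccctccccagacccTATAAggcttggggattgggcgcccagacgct
Plin5, chr17:56117549-56117798, minus strand: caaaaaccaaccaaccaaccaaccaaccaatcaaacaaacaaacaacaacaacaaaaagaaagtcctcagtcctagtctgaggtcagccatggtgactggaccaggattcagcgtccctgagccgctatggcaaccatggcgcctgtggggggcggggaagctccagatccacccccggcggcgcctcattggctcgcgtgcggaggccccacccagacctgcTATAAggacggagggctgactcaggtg
Lipe, chr7:25395988-25396237, minus strand: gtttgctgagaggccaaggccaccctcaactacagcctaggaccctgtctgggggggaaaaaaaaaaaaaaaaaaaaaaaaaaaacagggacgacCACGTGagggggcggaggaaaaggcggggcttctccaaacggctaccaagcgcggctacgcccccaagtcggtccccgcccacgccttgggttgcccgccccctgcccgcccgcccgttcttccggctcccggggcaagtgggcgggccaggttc
G0s2, chr1:193273189-193273438, minus strand: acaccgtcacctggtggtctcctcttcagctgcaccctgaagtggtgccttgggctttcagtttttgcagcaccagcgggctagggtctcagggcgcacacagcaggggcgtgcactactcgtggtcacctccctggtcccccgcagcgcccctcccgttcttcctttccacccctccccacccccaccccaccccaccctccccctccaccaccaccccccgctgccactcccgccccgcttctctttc

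Of the pair of genes whose products join droplets into larger ones, Cidea was well above background on all 4 arrays and Cidec hardly detected. Cidea, best known from brown fat, read 5.64 and 4.81 on doxycycline arrays 1 and 2 and 2.66 and 3.80 on control arrays 1 and 2. Neither pair was tight, but the lowest doxycycline array lay 1.01 above the highest control array. The difference was 1.99 ± 0.55 (SE, 3.98-fold, limma adjusted p = 0.431). Cidec, the fusion protein of white fat, had 2 probes. The brighter gave processed signals of 11.97 and 14.6 after doxycycline and 3.56 and 2.43 in control, and was well above background on doxycycline array 2 alone. The other stayed below that limit throughout. Cidec was not tested and no fold is given, because the bound set by the dimmest detected probes in control was above its mean after doxycycline.

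Both lipase genes were higher after doxycycline, and G0s2, which encodes an inhibitor of the Pnpla2 product, was lower. Pnpla2 read 6.18 and 6.04 on the doxycycline arrays and 4.02 and 5.07 on the control arrays. The 2 doxycycline arrays differed by 0.13 and the control arrays by 1.05. The Pnpla2 difference was 1.56 ± 0.48 (SE, 2.95-fold, limma adjusted p = 0.514). Lipe was the most even of the genes within groups, at 0.35 and 0.48 after doxycycline and -1.04 and -1.28 in control. The nearest arrays of the 2 groups were 1.39 apart, and the difference was 1.57 ± 0.40 (SE, 2.98-fold, limma adjusted p = 0.379), the smallest standard error of the 9. Its processed signals were 317 and 269 after doxycycline and 54.8 and 70.3 in control. The G0s2 protein is small and blocks that lipase by binding it. G0s2 read 0.20 and 0.52 on the doxycycline arrays and 1.05 and 1.93 on the control arrays, a difference of -1.13 ± 0.47 (SE, 2.19-fold lower, limma adjusted p = 0.693), with 0.53 between the nearest arrays.

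Dgat2, which joins the last fatty acid onto a triglyceride, did not separate the groups. It gave 6.07 and 5.89 after doxycycline and 4.53 and 5.91 in control, so that control array 2 equalled the doxycycline arrays and control array 1 was low. The difference was 0.76 ± 0.54 (SE, limma adjusted p = 0.894), with a 95% interval of -0.54 to 2.06.

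The size of most differences depended on which control array was used. Control array 1 read below control array 2 for 7 of the 9 genes, with a median gap of -1.05 over the 9, while the doxycycline arrays differed by a median of 0.13. Over all genes tested, control array 1 read below control array 2 for 6695 of 12542, with a median gap of -0.08. Without control array 1 the difference was 1.75 for Plin2 and 1.70 for Lipe, about as large as with all arrays. It was 1.53 for Plin4, 1.42 for Cidea, 1.04 for Pnpla2, 0.69 for Plin5, 0.07 for Dgat2 and -0.22 for Plin3, whose direction turned. For G0s2 it was -1.57. Without control array 2 the Plin5 difference was 2.29 and the Dgat2 difference 1.45, and G0s2 stood at -0.69. Leaving out a doxycycline array moved every difference less than leaving out a control array did, except for Plin2, which stood at 1.25 without doxycycline array 1 and 1.87 without doxycycline array 2.

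**Figure D3:**
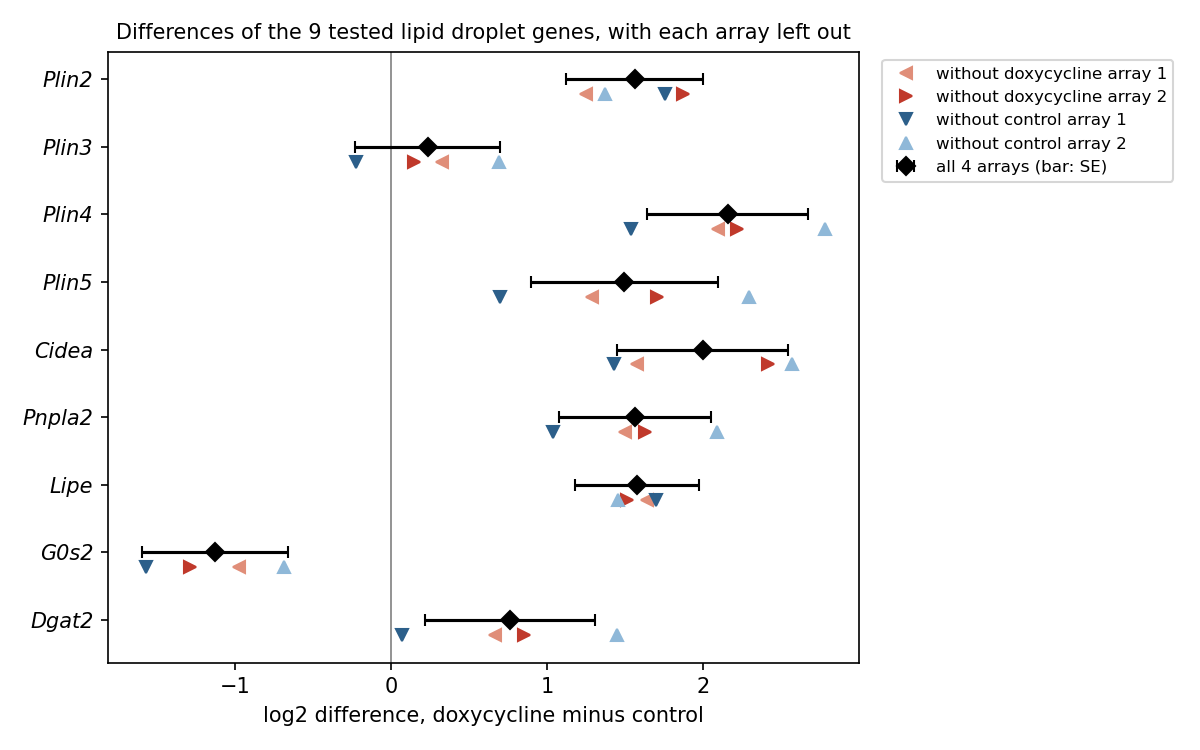
Log2 difference, doxycycline minus control, of the 9 tested lipid droplet genes with all arrays (diamond, bar: SE) and with each array left out in turn (triangles). Lipe stays between 1.45 and 1.70 whichever array is left out and Plin2 between 1.25 and 1.87, whereas Plin5 runs from 0.69 to 2.29 and Dgat2 from 0.07 to 1.45.

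Because control array 1 was also low in heart muscle markers, each array was scaled a further way, chosen after the data were seen, to the median of the 14 heart muscle markers in place of its 75th percentile. That median was 7.27 and 7.49 on the doxycycline arrays and 6.58 and 7.72 on the control arrays. The scaling moved every difference by -0.23, and the median of all genes to -0.29. The scaling also raised control array 1 relative to control array 2 by the same amount for every gene. Relative to heart muscle markers the control arrays came close for most lipid droplet genes. The median gap between them was 0.23 in size, against 1.05 before, and the gap was smaller for 7 of the 9. These 7 were the genes with control array 1 below control array 2 before. The narrowing therefore follows from the gaps already given and adds nothing on these genes. Cidea differed between the control arrays by 0.0017, Pnpla2 by 0.093 and Plin4 by -0.10. For Plin2 and Lipe the gap was wider, 1.52 and 1.39. On this scale Plin4 lay 2.09 and 1.75 above the control mean on doxycycline arrays 1 and 2, and Pnpla2 lay 1.505 and 1.153 above it. Cidea lay 2.29 and 1.23 above, and G0s2 lay at -1.41 and -1.31. Plin3 lay at 0.02 and -0.02, with control arrays at 0.11 and -0.11. The doxycycline arrays were above both control arrays for 7 of the 9 genes, Dgat2 now among them, as for 8.12% of all genes, and below both for G0s2, as for 17.7%. The standard errors were 0.57 to 0.73, larger than with the 75th percentile, and the limma adjusted p was 0.99994 for each of the 9. The limma unadjusted p stayed under 0.05 for Plin4 (0.012), Cidea (0.027) and G0s2 (0.048). It was no longer under 0.05 for Pnpla2 (0.053), Plin5 (0.074), Lipe (0.087) and Plin2 (0.11).

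**Figure D4:**
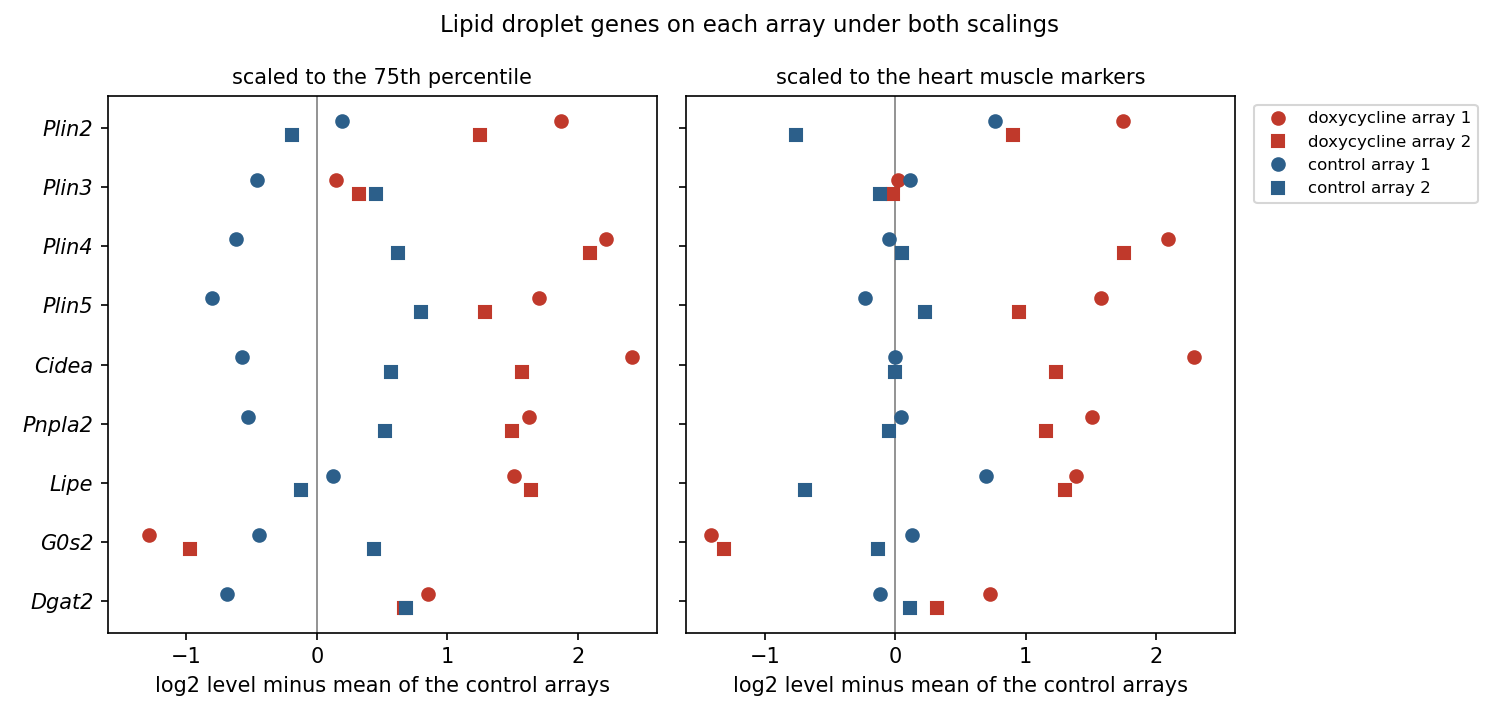
Each array's level of the 9 genes as a log2 distance from the mean of the control arrays, with arrays scaled to the 75th percentile (left) and to the median of 14 heart muscle markers (right). On the right the control arrays nearly coincide for Plin4, Cidea and Pnpla2 and spread for Plin2 and Lipe.

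A ratio between genes of 1 array does not depend on how arrays are scaled, so 9 were computed, for pairs picked after the values were seen and without a test. A ratio still depends on background correction. With normexp background correction Lipe differed by 1.05 and G0s2 by -0.87, against 1.57 and -1.13 in the main fit. Relative to the control mean, the log2 ratio of Pnpla2 to its inhibitor G0s2 was 2.91 and 2.47 on doxycycline arrays 1 and 2 and -0.08 and 0.08 on control arrays 1 and 2. The control arrays thus agreed on this ratio within 0.17, and it was 6.46-fold higher after doxycycline. The ratio of Plin4 to Plin3 was 2.07 and 1.77 after doxycycline and -0.16 and 0.16 in control, 3.78-fold higher. The control arrays were further apart on other ratios, by 1.13 on Lipe to G0s2, 1.30 on Plin2 to Plin3 and 0.69 on Plin5 to Plin3, whose differences were 2.70, 1.32 and 1.26. The doxycycline arrays lay above both control arrays on these 3 as well. These pairs, like those before them, set a gene that was higher over G0s2, which was lower, or Plin3, which hardly differed. Such a separation was therefore likely from the choice of pairs, and its share over all gene pairs was not computed. The ratio of Plin5 to Pnpla2 overlapped between the groups, at 0.07 and -0.21 after doxycycline and -0.28 and 0.28 in control. The ratio of Pnpla2 to Dgat2 was 0.77 and 0.83 after doxycycline and 0.16 and -0.16 in control, 1.74-fold higher. The remaining differences were 0.66 for Plin4 to Plin5 and 0.50 for Cidea to Plin5.

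Over the other genes of triglyceride storage and breakdown the median differences were small, while single genes differed by more than 1 in either direction. Of 21 other droplet proteins and lipases, 18 were tested, with a median difference of 0.22, which was -0.0025 without control array 1. Of these 12 were higher and 6 lower, against 45.2% and 54.8% of all genes, and 1 had an unadjusted limma p under 0.05 in the higher direction, as did 3.17% of all genes. This was Fitm2, an endoplasmic reticulum protein needed for droplet formation, at 1.47 ± 0.58 (SE) and at 0.74 without control array 1. Hsd17b11, a droplet-bound dehydrogenase, differed by 0.91 ± 0.45, Spg20 by 1.11 ± 0.51 and Hilpda, another inhibitor of the lipase encoded by Pnpla2, by 0.85 ± 0.49. Leaving out 1 array brought these to 0.50 for Hsd17b11 (control array 2 out) and to 0.52 for Spg20 and 0.34 for Hilpda (doxycycline array 1 out). The lipase's coactivator gene Abhd5 and the monoglyceride lipase gene Mgll, named for their role and outside the fixed naming rule, differed by 0.24 ± 0.51 and -0.62 ± 0.53. Without control array 1, Abhd5 turned to -0.25 and Mgll stood at -0.034, and Abhd5 also turned, to -0.13, without doxycycline array 1. Of 15 triglyceride synthesis genes, 14 were tested, with a median of 0.18 (0.033 without control array 1) and 1 with an unadjusted p under 0.05 in the higher direction (3.17% of all genes), the acyltransferase gene Agpat3 at 1.37 ± 0.50 and at 0.80 without control array 1. Agpat5 differed by 1.46 ± 0.72 (0.50 without control array 1), Gpam, the mitochondrial enzyme that starts glycerolipid synthesis, by 1.40 ± 0.81 (0.13 without control array 1) and Mogat1 by -0.74 ± 0.40. Gpam was not well above background on control array 1, and Mogat1 was not on either doxycycline array. With normexp background correction Gpam differed by 0.064 and Mogat1 by -0.41. Dgat1, the other enzyme of the last step and also outside the naming rule, differed by 0.18 ± 0.42 and turned to -0.12 without control array 1 and to -0.05 with heart muscle scaling. Of 16 genes of lipolysis signalling, 15 were tested, with a median of 0.12, which turned to -0.13 without control array 1. The lowest was Aqp7, a channel through which glycerol leaves the cell, at -1.69 ± 0.70, and at -0.95 without control array 1 and -0.93 without doxycycline array 1. It was the 1 gene of that list with an unadjusted p under 0.05, and in the lower direction 3.89% of all genes had one. Pde3a and Pde4b, phosphodiesterases that break down cyclic AMP, differed by 0.90 ± 0.46 and 1.11 ± 0.73, and Prkacb, a catalytic subunit of protein kinase A, by -0.47 ± 0.40. Pde3a, which was not well above background on control array 1, turned to -0.11 with normexp background correction. Pde4b stood at -0.00069 without doxycycline array 1.

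Genes known to respond to fatty acids through PPAR receptors were higher over a wider range. All 20 tested of 24 were higher in the doxycycline mean, by a median of 1.24, and 9 had an unadjusted limma p under 0.05, as did 3.17% of all genes in that direction. Both doxycycline arrays lay above both control arrays for 17 of the 20, as for 14.5% of all genes. Among them Angptl4, a secreted inhibitor of lipoprotein lipase, differed by 4.60, Pdk4, a kinase that holds back glucose oxidation, by 4.37 and Acot1, a thioesterase that frees fatty acids from coenzyme A, by 3.70, with limma adjusted p of 0.149, 0.165 and 0.149. Without control array 1 they differed by 5.43, 3.42 and 3.21. The list shared the low control array 1, with a median gap of -1.20 between the control arrays, and its median difference was 0.82 without that array. The list was chosen with these genes known to be high in these data, so its direction is not independent evidence.

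**Figure D5:**
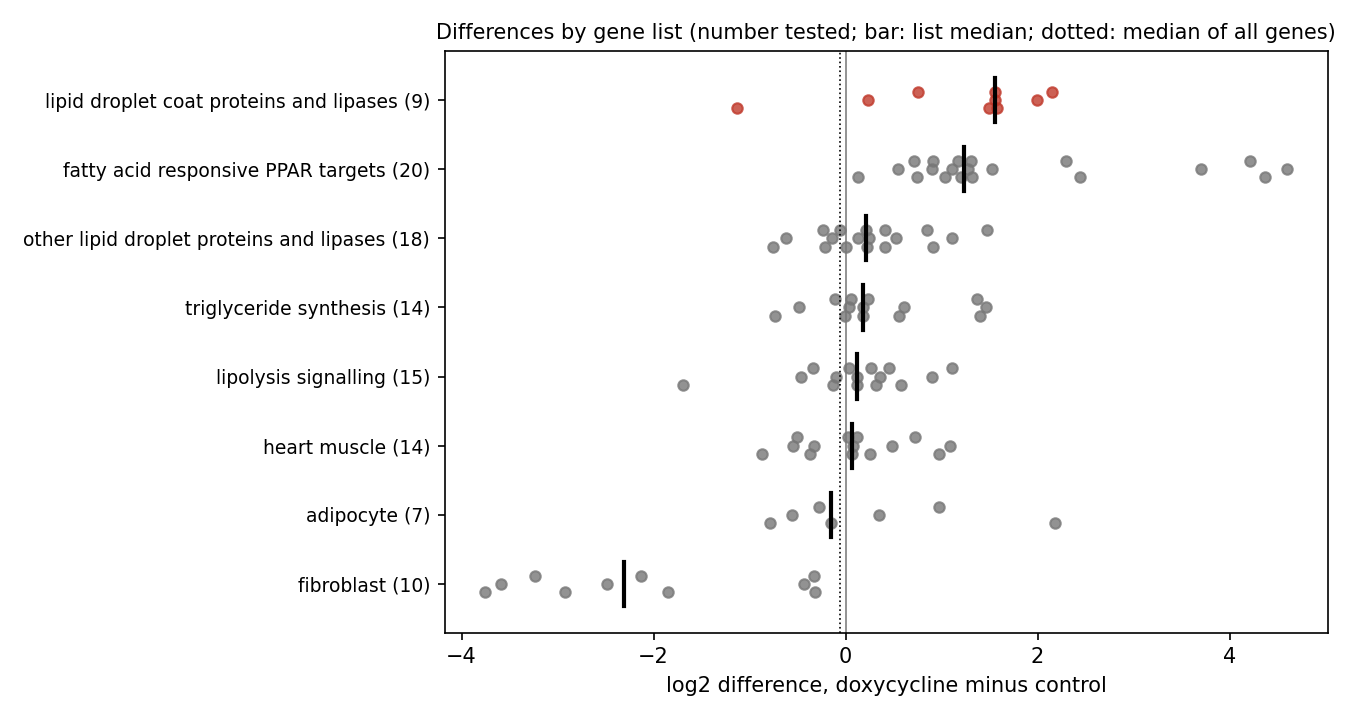
Log2 difference, doxycycline minus control, of each tested gene by list (points), with the list median (bar), 0 (solid line) and the median of all genes (dotted line). The lipid droplet genes and the PPAR targets have medians of 1.56 and 1.24, the other 3 fat storage lists lie between 0.12 and 0.22, and fibroblast markers lie at -2.31.

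Perilipins and the Cide genes are also fat cell genes, so markers of other cells were set beside them. Adipoq, Plin1, the perilipin of fat cells, Lep and Ucp1 were not well above background on any of the 4 arrays. Of 10 adipocyte markers, 7 were tested, 3 higher and 4 lower, with a median difference of -0.15 (0.25 without control array 1). Their summed level in log2 was 6.92 and 7.21 on the doxycycline arrays and 8.39 and 6.84 on the control arrays, a sum over probes that serves to set arrays side by side. Fabp4 alone read 6.89 and 7.17 after doxycycline and 8.37 and 6.81 in control, so it sets nearly all of that sum. Fabp4 is also on the endothelial list, so the sum is no measure of fat cells alone. Cfd, a complement protease secreted by fat cells, had the largest difference of the 7 and was named for it, at 2.18 ± 0.42 (SE, limma adjusted p = 0.284). Of 6 brown adipocyte markers, 3 were tested, and these (Cox7a1, Cox8b and Prdm16) had a median of -0.07 (-0.62 without control array 1). The summed level of that list was 9.53 and 9.64 after doxycycline and 9.13 and 10.18 in control. Cox7a1 alone read 8.75 and 8.87 after doxycycline and 8.37 and 9.51 in control, so it and Cox8b set most of that sum. The untested markers, Ucp1 among them, were not well above background on any array. The median gap between the control arrays was -1.11 over the 3, against -1.17 over the heart muscle markers. The list is therefore no measure of brown fat cells here. The 14 heart muscle markers had a median of 0.07 (-0.39 without control array 1), with Myh6 at -0.51 ± 0.45 (-0.83 to -0.19 with 1 array left out), and summed levels of 11.84 and 12.11 after doxycycline and 12.20 and 12.46 in control. Fibroblast markers were lower for 10 of 10, against 54.8% of all genes, with a median of -2.31. Without control array 1 they were lower for 7 of 10, with a median of -1.39. Their summed levels were 6.28 and 6.40 after doxycycline and 7.79 and 6.10 in control. Dcn alone read 6.22 and 6.29 after doxycycline and 7.40 and 5.73 in control, so it set most of those sums. It differed by -0.32 ± 0.60 (SE), far less than the list median. Macrophage markers (7 of 8 lower, median -1.08, or 6 of 8 and -0.48 without control array 1) and red cell markers (4 of 4 lower, median -1.64, or -0.46 without control array 1) had lower means too, with summed levels of 3.05 and 2.79 after doxycycline and 4.39 and 2.87 in control for macrophages, and 3.64 and 3.90 against 6.62 and 4.27 for red cells. Not all non-muscle lists were clearly lower. The endothelial median was -0.18 and turned to 0.49 without control array 1. The smooth muscle and pericyte median was -0.44 and turned to 0.18, and the mesothelial median was -0.17, or -0.46 without that array. In such mixed samples fewer cells of a type and less RNA per cell cannot be told apart, and the part of these cell types in the lipid droplet results was not tested.

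Of all 12542 genes, those with the 4-array pattern most like Plin4, measured by Euclidean distance between log2 levels centred on each gene's mean, were Crem, a transcription factor of cyclic AMP signalling (0.13), Otud1, a deubiquitinating enzyme (0.14), and Ucp3, a mitochondrial carrier of muscle (0.18). Crem read 0.90 and 0.65 after doxycycline and -1.90 and -0.77 in control. Among the other lipid droplet genes the nearest to Plin4 were Cidea (0.53, with 44 genes nearer), Pnpla2 (0.61, 58 nearer) and Plin5 (0.74, 91 nearer), and the furthest was G0s2 (3.31, 10954 nearer). With 4 arrays, many genes share a pattern, and these distances are a description.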

How the data were processed

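Cy3-labelled RNA of each of the 4 samples was measured on a 1-colour Agilent mouse array. The authors read out spot intensity with Feature Extraction 10.7.1.1 from Agilent, per the file headers. The processed intensity they deposited is on a linear scale, and its 75th percentile differed between arrays. The correction steps behind it are not given in the sources used here. Median spot and background intensity, an error estimate and the deposited other columns (flags) were also used, per the file headers. All arrays lay on 1 slide and no spot was saturated. Treatment and slide position cannot be told apart.

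Of the 44397 spots per array, non-control spots were log2-transformed and the 75th percentile subtracted; outlier spots were left out and repeated spots averaged. Probes were named by unversioned RefSeq accession (GRCm38.p6 table; the array's design build is mm9). Probes well above background on at least 2 arrays were kept and the brightest stood for a gene. Groups, taken from titles, were compared two-sided with limma 3.58.1 in R 4.3.3 (4.69 prior and 2 residual degrees of freedom), with Benjamini-Hochberg adjustment over all 12542 genes at 0.05. A permutation test of 2 against 2 cannot go below 0.333. The number of arrays limits the precision. The steps were tested on simulated data. Columns of other series numbered 0. Figures were drawn with matplotlib 3.10.9.

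The genes, lists and tests were chosen with earlier results of these data known, and the motifs and ratios after the values were seen. The named genes were all 10 members, up to 4 of each other pathway list with the smallest p, the 3 nearest to the member with the smallest p, and the markers Adipoq, Plin1, Ucp1 and Myh6. Dgat1, Abhd5 and Mgll were added for their role, Lep as a defining marker and Cfd for its size. Fabp4 and Dcn were added for their weight in a summed level. Cox7a1, Cox8b and Prdm16 were added as the tested brown adipocyte markers. A gene that this rule names is not reported here. Alternatives were normexp with an offset of 50, quantile, median and heart muscle scaling, other filters on dim probes, the mean of a gene's probes or every probe, other variance models, a block for replicate number, leaving out each array, and a call rule of unadjusted p under 0.05 plus a log2 difference of 1 or more in size.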

Additional observations from a re-analysis of the deposited data

How the results depend on the processing

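Each of the 9 tested lipid droplet genes kept its direction under the 16 alternative fits, except Plin3, which ranged from -0.22 to 0.69 when 1 array was left out. Their median difference ranged from 1.04 (without control array 1) to 1.63 over fits with 1 array left out, where the lone array of a group is taken to vary like the other group, and from 1.33 to 1.91 in the other alternatives. The count of 0 genes called became 128 (95 higher, 33 lower) with scaling to the median, which moved every difference by 0.35, and 873 (394 higher, 479 lower) under the rule of an unadjusted p below 0.05 plus a log2 difference of 1 or more in size (398 higher and 488 lower by the unadjusted p alone). It ranged from 0 to 171 with 1 array left out, with 32 calls when doxycycline array 1 was out and 171 when doxycycline array 2 was out, and was 0 in all other fits but the block. With the replicate number as a block, 295 genes were called (152 higher, 143 lower), among them Plin4 (limma adjusted p = 0.024) and Cidea (limma adjusted p = 0.047). That fit gave all genes the same variance, with an SE of 0.61 for every difference, so its p-values do not use a gene's own scatter. With a doxycycline array left out the variance was nearly shared as well (1012.86 prior degrees of freedom), so those calls have the same limit. The labels do not say that the number pairs samples, and same-numbered arrays deviated from their group means with a correlation of -0.085 across genes. Scaling to the median gave list medians of 0.57 for other droplet proteins, 0.53 for triglyceride synthesis and 0.47 for lipolysis signalling, against 0.29 for all genes. The lipolysis signalling median ranged from -0.13 to 0.19 with 1 array left out. Directions turned for Abhd5 (-0.25 to 0.73 with 1 array left out), Dgat1 (-0.12 to 0.49 with 1 array left out and -0.049 with heart muscle scaling), Pde4b (-0.00069 to 2.22 with 1 array left out) and Pde3a (-0.11 with normexp); the cause was not tested. With normexp Lipe differed by 1.05.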
